A study of Mus musculus with 2 samples.

Results

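Chromatin accessibility was described at 9 genes of the pre-B cell receptor and the B cell receptor: Vpreb1, Vpreb3, Igll1, Cd79a, Cd79b, Blk, Syk, Btk and Blnk. They were chosen as a named list, for their place in this receptor pathway, from the 21827 protein-coding genes of the GENCODE vM21 annotation, and the rule uses no measured value. The material was spleen tissue of male B6CASTF1/J mice aged 4 days, first-generation hybrids of the C57BL/6J and CAST/EiJ strains, with no treatment named. Nuclei were isolated from the tissue and assayed by DNase-seq, in which the enzyme DNase I cuts open chromatin more often than packed chromatin. The labels give 1 group of 2 biological replicates, from males that are numbered differently and share 1 donor entry, so there was no contrast between conditions and no test was made. All differences below are set against the spread of the 2 libraries, and the share or median of all genes is given as background.

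A developing B cell first displays an immunoglobulin heavy chain together with a surrogate light chain, built from a VpreB protein and the lambda5 protein, and this complex is the pre-B cell receptor. Once a true light chain is made, the surrogate is replaced and the B cell receptor takes over. Both receptors signal through the same pair of membrane proteins, Ig-alpha and Ig-beta, whose tails recruit the kinases and the adaptor that carry the signal into the cell. The spleen of a newborn mouse makes blood cells of several lineages, red cells above all, beside housing its first B cells.

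A peak is a stretch of the genome that the authors called open in 1 library, and its signal is the deposited value for that peak, on a scale that the sources do not state. Regions where peaks of both libraries overlapped were called shared, and a gene counted as having an open promoter if such a region came within 1 kb of any of its start sites. The longer lists of replicates 1 and 2 held 80323 and 88723 peaks, the stricter lists held 51123 and 56521, and the longer lists gave 60596 shared regions. Read totals were not used, so the depth behind each value is unknown. Start sites of 7 of the 7 annotated B lineage marker genes and of 7 of 7 erythroid marker genes were open. T cell markers were open at 2 of 7 genes, with Cd3e, Cd3d, Cd247 and Cd4 at no peak, and natural killer markers at 1 of 4. Macrophage markers were open at 2 of 6 genes and neutrophil markers at 2 of 4. Stroma markers were open at 1 of 5 genes, and the markers of mast cells (3 genes) and hepatocytes (4 genes) had no promoter peak. In whole tissue, fewer cells of a type and less open chromatin per cell cannot be told apart.

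Of the 9 receptor genes, 7 had an open promoter, against 59.7% of all protein-coding genes. The closed pair was Vpreb1 and Vpreb3, which both code for VpreB-type chains, and no receptor gene had a promoter peak in 1 library only. On the stricter lists 5 of the 9 had an open promoter, against 54.6% of all genes, because Igll1 and Btk had stricter peaks in neither library. The promoters were weak ones: the median over the 7 open genes of the mean signal was 1.69, against 5.83 over all genes with a promoter peak in each library. Of the 9 promoters, 8 were poor in CpG (an observed over expected CpG ratio under 0.5), Syk being the exception at 0.768. Among CpG-poor promoters of all genes, 23.5% were open and the median mean signal was 1.46, and 6 of the 8 CpG-poor receptor genes were open.

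**Figure D1:**
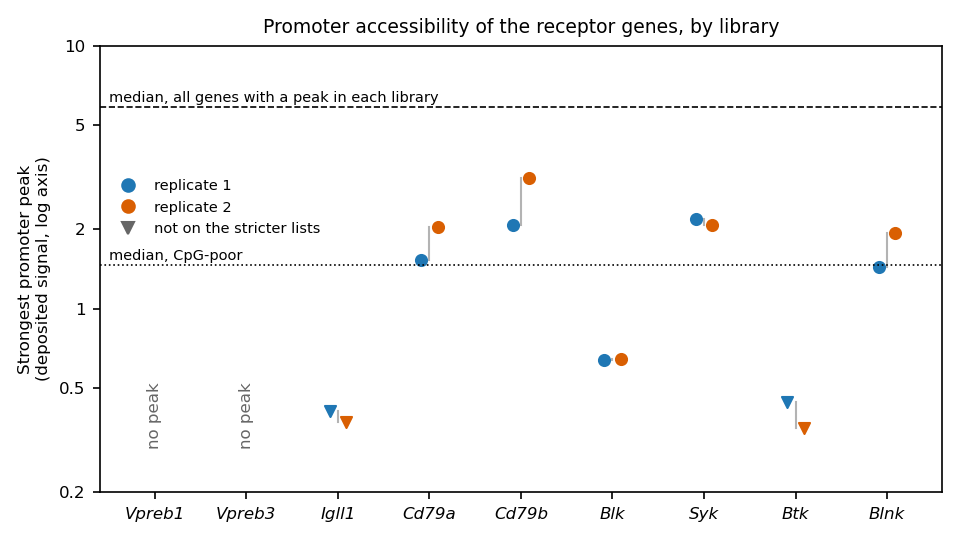
Signal of the strongest peak within 1 kb of a start site of each receptor gene (deposited units, log axis), 1 point per library, with the median mean signal of all genes (dashed) and of CpG-poor genes (dotted) that had a peak in each library. Cd79b, Syk, Cd79a and Blnk lie between 1.44 and 3.12, Blk near 0.641, Igll1 and Btk below 0.45, and Vpreb1 and Vpreb3 have no peak.

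The surrogate light chain genes and the related Vpreb3 had no promoter peak or a faint one. Vpreb1 (chr16:16868403-16870843, minus strand), which codes for one of the 2 mouse VpreB chains of the surrogate light chain, had no peak within 1 kb of its start site at 16869255 in either library. It also had no position there with a false discovery rate (FDR) below 0.05, the ceiling of the deposited position lists. That was usual for closed genes: of the 7640 genes with no promoter peak in either library (35% of all genes), 96.3% had no such position in either library. Part of the sequence there is repeated. Of the 31-base words in the 1 kb on either side of the Vpreb1 start site, 29.3% occur elsewhere in the genome, and 548 of its 1971 words also lie around the start site of the near-identical gene Vpreb2. Vpreb2 had no promoter peak either. The part of this repetition in the missing peaks was not tested.

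Open chromatin did lie next to Vpreb1. A shared region at chr16:16870641-16870880 had a signal of 5.03 in replicate 1 and 5.12 in replicate 2, and it overlapped the 5′ end of the annotated extent of Vpreb1. Its midpoint was 4 bp from a start site of Top3b, a DNA topoisomerase gene, and 1.506 kb upstream of the protein-coding start site of Vpreb1. It is therefore counted here as a promoter of Top3b.

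Vpreb3 (chr10:75943057-75949657, plus strand) codes for a VpreB-like protein. Neither of its 2 start sites had a peak in either library. Replicate 2 listed 30 bases with an FDR as low as 0.0265 near a start site, and replicate 1 listed none.

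Igll1 (chr16:16860671-16863985, minus strand), the gene of the lambda5 chain, was open only at the faintest level. Its peak had a signal of 0.409 in replicate 1 and 0.372 in replicate 2, a mean of 0.390 ± 0.0259 (SD, n = 2), at the 3.47th percentile of genes with a promoter peak in each library. The libraries placed it differently. The peak of replicate 1 ran from 16864128 to 16864246 and that of replicate 2 from 16863986 to 16864180, so that the overlap was partial, and the promoter was not called open when an overlap of 50% of both peaks was asked for. Lowest FDR values were 0.0235 and 0.0125, over 95 and 173 listed bases. Footprints, short stretches inside open chromatin that are cut less than their surroundings, numbered 2 and 3 near the start site in replicates 1 and 2, and none of them overlapped between the libraries.

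The upstream sequences of these 3 genes are shown because their chromatin was closed or barely open, with the motif letters that they hold. Each is the 250 bases before the start site in the RefSeq promoter table (GRCm38.p6, the build called mm10), on the gene's own strand, and capitals mark matches on either strand to the motif letters listed further on.
Igll1 (chr16:16863986-16864235, minus strand): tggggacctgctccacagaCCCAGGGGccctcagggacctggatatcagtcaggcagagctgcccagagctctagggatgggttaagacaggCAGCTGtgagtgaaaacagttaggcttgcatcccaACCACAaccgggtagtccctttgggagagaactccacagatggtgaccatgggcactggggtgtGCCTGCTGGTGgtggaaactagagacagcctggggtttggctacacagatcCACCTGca
Vpreb3 (chr10:75948050-75948299, plus strand): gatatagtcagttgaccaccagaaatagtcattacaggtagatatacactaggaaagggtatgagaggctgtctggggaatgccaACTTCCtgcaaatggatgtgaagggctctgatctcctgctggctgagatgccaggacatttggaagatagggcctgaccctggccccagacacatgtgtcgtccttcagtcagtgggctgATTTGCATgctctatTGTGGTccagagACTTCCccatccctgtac
Vpreb1 (chr16:16869256-16869505, minus strand): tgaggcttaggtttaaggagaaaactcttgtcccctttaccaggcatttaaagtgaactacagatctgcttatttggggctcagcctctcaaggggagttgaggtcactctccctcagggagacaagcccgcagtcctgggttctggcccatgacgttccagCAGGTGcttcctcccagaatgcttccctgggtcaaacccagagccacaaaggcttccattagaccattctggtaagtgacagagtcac
The Igll1 sequence holds a CCCNNGGG match, both E-box forms (CAGGTG and CAGCTG), a RUNX match (TGTGGT) and the CTCF pattern described with the distal regions. In Vpreb3 the octamer ATTTGCAT, TGTGGT and GGAAGT are found. Vpreb1 holds a single match, to CAGGTG. A match shows letters, not a protein bound.

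The signalling chains shared by both receptors were the most open of the receptor genes beside Syk. Cd79a, which codes for Ig-alpha (chr7:24897381-24902197, plus strand), had a promoter signal of 1.53 in replicate 1 and 2.05 in replicate 2, a mean of 1.79 ± 0.365 (SD, n = 2). Its partner Cd79b, coding for Ig-beta (chr11:106311341-106314762, minus strand), had 2.09 and 3.12, a mean of 2.60 ± 0.733 (SD, n = 2). In both genes replicate 2 was the higher library. These means lay at the 24.5th and 30.7th percentile of genes with a promoter peak in each library.

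At Cd79a the peaks ran from 24897241 to 24897580 and 24897560, across the start site and into the 5′ untranslated region. A weaker region lay 900 bp upstream, at 0.704 and 0.895. Footprints of both libraries overlapped at 3 places near the start site, of 6 and 5 called. The nearest to the start site ran from 24897382 to 24897404 over both libraries, and 30 bases around it are shown for its position on the first bases of the transcript, with the bases that lay in footprints of both libraries in capitals.
Cd79a (chr7:24897378-24897407, plus strand): cacatatggCAAATAAAGGGCCAggagtaa
A second footprint pair, from 24897447 to 24897467, touched a GGAAGT match at 24897443 by 2 bases in replicate 1 and by none in replicate 2.

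At Cd79b the peaks ended at 106314720 and covered most of the sequence between its 2 start sites, 106314762 and 106314529, which is exon of the longer transcript. A weaker region 781 bp inside the gene had signals of 0.694 and 0.781. One pair of footprints overlapped, from 106314611 to 106314648. A CCCNNGGG match at chr11:106314615-106314622 lay within it, with 6 of its 8 bases in the footprint of replicate 1 and 8 in that of replicate 2. CCCNNGGG is the short form of the motif of EBF1, a factor known for switching on the genes of both receptors. Of all open promoters, 9.84% had such a match touching a stretch where footprints of both libraries overlapped.

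Among the kinases, Syk was open at the level of the receptor chains and Blk and Btk were far weaker. Syk (chr13:52583173-52648792, plus strand), the kinase that docks on the phosphorylated tails of Ig-alpha and Ig-beta, had 2.19 and 2.08, a mean of 2.13 ± 0.0790 (SD, n = 2). It has 3 start sites. A broad region around the first pair (52582981 to 52583640), a second region 472 bp upstream at 1.15 and 1.23, and a small one at the third start site at 0.575 and 0.503 were shared. With 8 overlapping footprint pairs of 11 and 17 footprints called, Syk had the most of the 9 genes.

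Blk (chr14:63372836-63417037, minus strand), a kinase of the Src family found mainly in B cells, had 0.640 in replicate 1 and 0.642 in replicate 2. That mean, 0.641, lay at the 10th percentile, and its peaks were on the stricter lists of both libraries. One pair of its footprints overlapped, from 63417134 to 63417144, 102 bp upstream of the start site.

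Btk (chrX:134542336-134583570, minus strand), the kinase that is lost in X-linked agammaglobulinaemia, had 0.441 and 0.352, a mean of 0.396 ± 0.0632 (SD, n = 2). These values come from a shared region 727 bp inside the gene, not from the start site itself. At the start sites, replicate 1 had a peak of 0.382 from 134583040 to 134583237 and replicate 2 one of 0.331 from 134582810 to 134583020, and the 2 did not overlap. With a window of 500 bp the promoter of Btk was accordingly not called open. Btk is on the X chromosome, of which males carry 1 copy, and signals were not corrected for copy number. The part of copy number in its low values was not tested.

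Blnk (chr19:40928927-40994535, minus strand) codes for the adaptor that Syk phosphorylates and that brings Btk and phospholipase C together. Its promoter signal was 1.44 in replicate 1 and 1.94 in replicate 2, a mean of 1.69 ± 0.354 (SD, n = 2), close to that of Cd79a. The peaks lay in the 5′ untranslated region of the longer transcript, 63 and 83 bp upstream of the second start site at 40994148. A single pair of footprints overlapped, and it is shown with its shared bases in capitals, since it is the only protected stretch that both libraries share at this promoter.
Blnk (chr19:40994227-40994256, minus strand): aacatgaaacttGGCGATGCGctccagcga
None of the motifs searched matched inside it.

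Ordered by mean signal, the genes ran Cd79b, Syk, Cd79a, Blnk, Blk, Btk and Igll1. The ranges of the 2 libraries overlapped between Cd79b and Syk, between Cd79a and Blnk, and between Btk and Igll1, so those neighbours were not separated. Syk lay above Cd79a in both libraries, though its lower value of 2.08 exceeded the higher value of Cd79a, 2.05, by very little. Blk lay below the first 4 genes and above the last 2 in each library. The place of Btk in this order rests on signals not corrected for its 1 copy in males. Btk was lower than Igll1 in replicate 2 and higher in replicate 1.

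Overlapping footprints of both libraries were found near the start sites of 6 of the 9 genes, against 56.3% of all genes and 94.2% of genes with an open promoter. The open gene without one was Igll1. Each of the 7 open genes had at least 1 footprint in each library, as did 98.7% and 99.2% of all genes with an open promoter in replicates 1 and 2.

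Motif letters were searched on both strands in 300 bases centred on the strongest shared promoter region of the 7 open genes. The octamer ATTTGCAT, bound by OCT factors, is a known element of immunoglobulin promoters. It was present in Cd79b (chr11:106314602-106314609) and Blnk (chr19:40994344-40994351), 2 of 7 genes, against 1.27% of 13028 open promoters and 1.87% of the CpG-poor ones. Neither match lay in a footprint. Since the closed Vpreb3 promoter holds the octamer too, its letters did not follow openness among the 9 genes. In the RefSeq promoter table, which matched 7 of the 9 genes (Cd79b and Blk had no entry), Blnk and Vpreb3 held it, against 1.75% of 27025 promoters.

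The short EBF form CCCNNGGG matched in Cd79b and Igll1, and in 20.4% of all open promoters. The full EBF form, with a T before and an A after it, matched in none of the 7 and in 0.990% of open promoters. For the E-box CAGGTG, 4 genes matched (Cd79a, Igll1, Blk and Syk), against 17.4% of open promoters and 23.2% of the CpG-poor ones. CAGCTG matched in Cd79b, Igll1 and Btk, against 16.1%. The ETS letters GGAAGT were found in Cd79a, Blnk and Blk (27.7% of open promoters). TGTGGT, the RUNX core, was found in Igll1 and Blk (10.7%), and the Ikaros letters TGGGAA in Cd79b and Blk (20.2%). The ETS form CCGGAA (30.1%), the PAX core GCGTGAC (4.24%), the ETS-IRF composite (1.96%), the TATA letters TATAAA (3.93%) and the GATA letters AGATAA (3.75%) matched in none of the 7. The same held for the SP letters GGGCGG, which 71.8% of all open promoters and 50.4% of the CpG-poor ones contain. With 7 genes, these counts describe the sequences and single out no motif.

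The surroundings of the genes held more open regions than the median gene, though only slightly more at Blk, Igll1 and Vpreb1. Within each gene body and 50 kb on either side, the number of shared regions was 17 at Cd79a, 17 at Syk, 14 at Vpreb3, 13 at Cd79b, 12 at Btk, 10 at Blnk, 8 at Blk and 7 at both Igll1 and Vpreb1. The median over all genes was 6, and Igll1 and Vpreb1 lay at the 54.0th percentile and Blk at the 59.5th. Longer genes have longer windows, and per 100 kb the numbers ran from 5.55 at Blk to 16.2 at Cd79a, all above the median of 4.51. Igll1 and Vpreb1 are neighbours, and their windows held the same 7 regions. Counted once, 98 regions lay in the 9 windows, of which 40 were within 1 kb of a start site of some protein-coding gene. Dense neighbours contributed many: Rps19 and Arhgef1 at Cd79a, Smarcd2 at Cd79b, and Derl3, Smarcb1 and Chchd10 at Vpreb3.

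**Figure D2:**
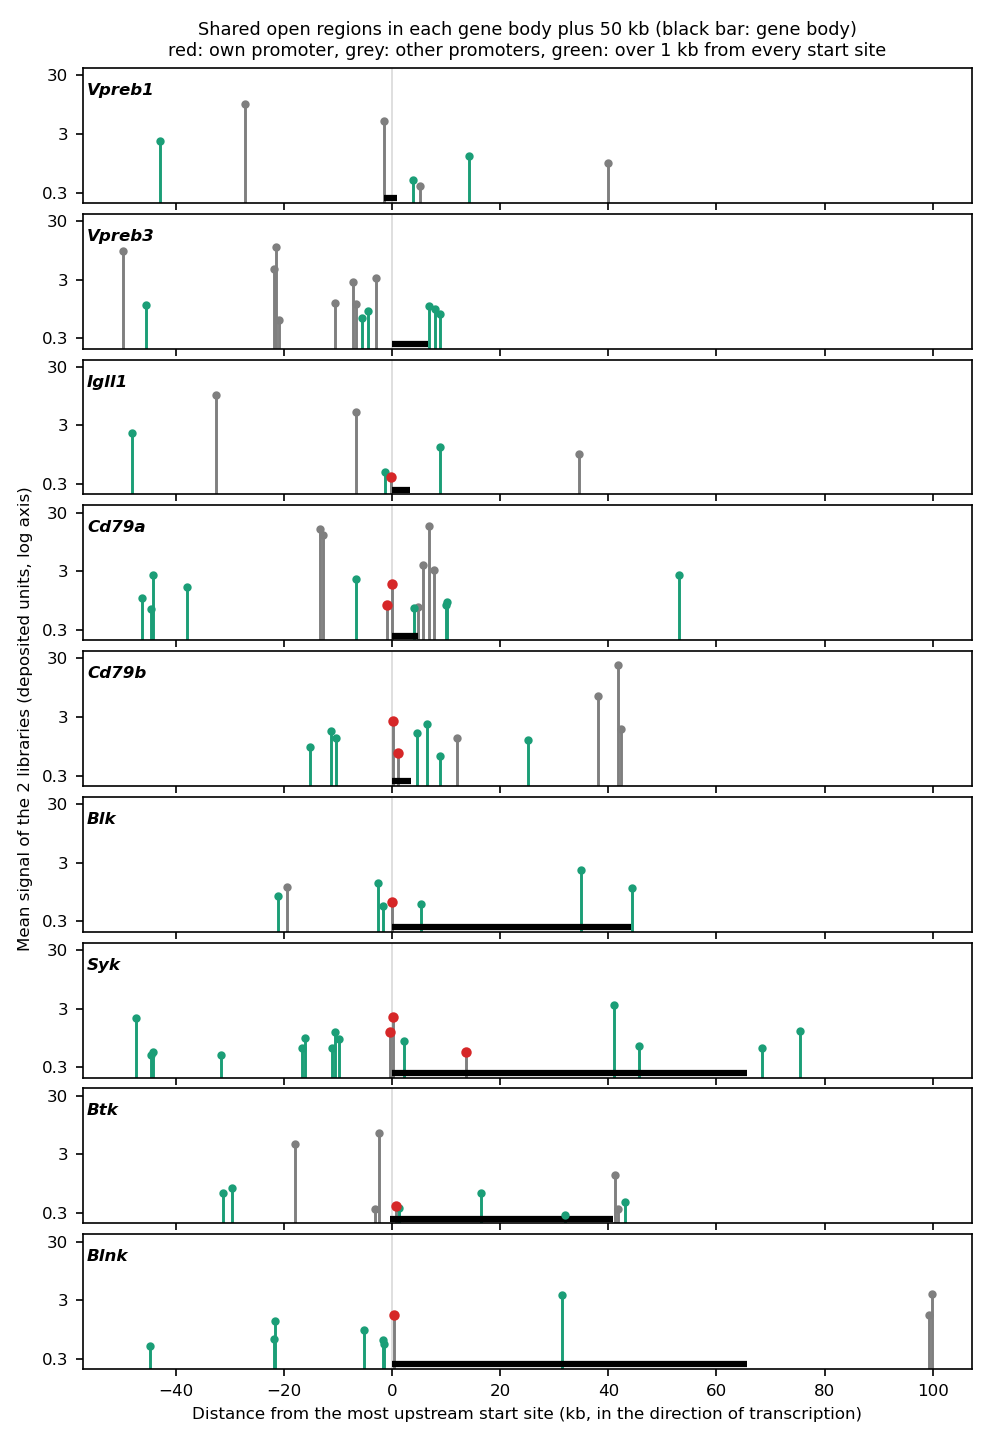
Shared open regions around each receptor gene: horizontal axis, distance from its most upstream start site in kb, in the direction of transcription, vertical axis, mean signal of the 2 libraries (log axis). Red marks regions within 1 kb of the gene's own start sites, grey regions near other genes' start sites, and green the 58 regions more than 1 kb from every start site, of which Syk has 14.

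The other 58 regions were distal, meaning more than 1 kb from every protein-coding start site. Their median signal, by the lower of the 2 libraries, was 0.781, close to the 0.744 of all 39125 distal regions. Peaks on both stricter lists were found at 33 of the 58, against 61.2% of all distal regions, and overlapping footprints at 45, against 78.2%. These shares are near the background. Of the 58 distal regions, 18 lay in an intron, either of a receptor gene or of a neighbouring gene. Syk had 14 distal regions in its window, Cd79a 9, Cd79b and Blnk 7 each, Vpreb3, Btk and Blk 6 each, and Igll1 and Vpreb1 3, against a median of 3 for all genes.

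The strongest distal regions lay inside the genes at Blnk and Syk. In an intron of Blnk, 31.007 kb from the nearer start site, a region reached 3.49 in replicate 1 and 3.95 in replicate 2, above the promoter in both libraries and at the 94.4th percentile of distal regions. An intron of Syk held one of 3.24 and 3.67, 27.398 kb from the nearest start site, likewise above the promoter. The intronic region of Blk, at 1.72 and 2.86, was also above its promoter, and its libraries stood further apart than those of the other 2. All 3 introns had 3 overlapping footprint pairs. Their sequences are shown with the bases covered by footprints of both libraries in capitals, as the regions where these genes were most open.
Blnk intron (chr19:40963061-40963220, minus strand): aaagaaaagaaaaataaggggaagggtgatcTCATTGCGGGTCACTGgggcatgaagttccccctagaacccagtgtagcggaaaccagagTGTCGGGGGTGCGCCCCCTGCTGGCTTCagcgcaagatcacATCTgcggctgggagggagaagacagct
Syk intron (chr13:52624161-52624340, plus strand): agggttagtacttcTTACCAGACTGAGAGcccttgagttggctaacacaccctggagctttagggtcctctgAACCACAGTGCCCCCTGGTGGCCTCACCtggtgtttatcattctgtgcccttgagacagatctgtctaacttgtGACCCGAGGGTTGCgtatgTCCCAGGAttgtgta
Blk intron (chr14:63381941-63382120, minus strand): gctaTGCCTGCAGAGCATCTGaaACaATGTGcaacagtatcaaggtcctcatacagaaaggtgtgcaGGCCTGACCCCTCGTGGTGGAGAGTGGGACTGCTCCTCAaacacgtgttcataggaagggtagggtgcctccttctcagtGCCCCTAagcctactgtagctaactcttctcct
The footprinted bases of Blnk and Syk contain, on one of the strands, the core pattern of CTCF, a factor known for anchoring chromatin loops and boundaries. The intron of Blk has no such match.

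A further pair of intergenic regions with that pattern is shown because they lie between a receptor gene and the next gene. They are not the strongest of their windows and were chosen after their values were seen.
Downstream of Igll1 (chr16:16854941-16855140, minus strand): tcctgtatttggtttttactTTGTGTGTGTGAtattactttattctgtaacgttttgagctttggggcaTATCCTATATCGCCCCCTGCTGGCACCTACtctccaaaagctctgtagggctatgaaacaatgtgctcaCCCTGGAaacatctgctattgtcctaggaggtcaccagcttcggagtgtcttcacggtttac
Upstream of Cd79a (chr7:24890541-24890740, plus strand): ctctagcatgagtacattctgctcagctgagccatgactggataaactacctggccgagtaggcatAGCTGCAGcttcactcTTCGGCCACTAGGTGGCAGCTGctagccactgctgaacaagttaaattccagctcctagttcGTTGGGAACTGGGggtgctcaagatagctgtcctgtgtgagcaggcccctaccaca
The first had signals of 1.25 and 1.28 and lay 8.944 kb from the Igll1 start site, and the second had 2.02 and 2.43 and lay 6.74 kb from that of Cd79a. Both had 3 overlapping footprint pairs. The pattern was added after these sequences had been seen. In the 200 bases centred on each region it matched in 16 of the 58 distal regions (27.6%), against 27.0% of all distal regions and 35.2% of the 3915 strongest, so it was no more common near the receptor genes than elsewhere.

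In the other windows, the strongest distal region is given by the lower of the 2 libraries. Cd79a had one 53.08 kb downstream of its start site (chr7:24950361-24950560) at 2.49 and 2.63, with Gm4881 as the gene with the nearest start site. A region 44.27 kb upstream of Cd79a (chr7:24853001-24853220) was not separated from it, at 2.63 and 2.46. At Cd79b the strongest lay 6.158 kb downstream of the nearest start site (chr11:106308261-106308480), at 2.11 and 2.49, the 87.0th percentile of distal regions. The shared window of Igll1 and Vpreb1 had its strongest in an intron of the neighbour Ppm1f (chr16:16912001-16912220), at 2.13 and 2.40. Vpreb3, closed at its start sites, had 0.978 and 1.16 at a region 1.591 kb downstream of the second one (chr10:75949761-75950020). By mean signal, a region in an exon of Smarcb1 (chr10:75897425-75897600) was slightly higher, at 1.26 and 0.944. Btk had the weakest, 0.941 and 0.654 at chrX:134612481-134612880, 29.541 kb upstream, again without correction for the copy number of the X chromosome in males.

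The 2 libraries did not weigh the genes alike. The log2 ratio of replicate 2 to replicate 1 was centred by subtracting its median over all shared regions, −0.16. On that scale Cd79b was at 0.75, Blnk at 0.59, Cd79a at 0.58, Blk at 0.17, Syk at 0.09, Igll1 at 0.03 and Btk at −0.16. Thus 6 of 7 genes were relatively higher in replicate 2, against 36.9% of all genes with a promoter peak in each library. As deposited, without centring, 4 of 7 were higher in replicate 2, against 17.5%, and Syk and Igll1 changed side. The median of the 7 was 0.17, against −0.079 for all genes and −0.0050 for CpG-poor ones. Of the 7 promoters 6 were CpG-poor, and no share was computed over CpG-poor genes alone. With 1 pair of libraries, differences between the mice and between the libraries, such as depth, cannot be told apart, and there is no replicate check.

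Marker lists differed between the libraries as well. All 7 annotated B lineage markers were relatively higher in replicate 2, with a median of 0.49 and a range from 0.11 to 0.59, and their summed promoter signal was 10.8 in replicate 1 and 12.5 in replicate 2. Of the erythroid markers 1 of 7 was relatively higher, the median was −0.16, and the summed signal was 41.0 and 30.3. These sums are of deposited signals without centring, and strong promoters weigh most in them. Ebf1 had 2.99 and 4.02 in the B lineage list, and Epor 17.6 and 11.1 in the erythroid list. For T cell markers the sum was 2.69 and 2.71, over the 2 open genes and Cd8a, which had a peak in replicate 2 alone. Those 2 genes went opposite ways, Cd5 at 0.57 and Lck at −0.56. Macrophage markers with a peak in each library were relatively higher in replicate 2 at 2 of 3 genes, with a median of 0.33. The remaining gene, Adgre1, whose promoter was not called open, was at −1.47. The macrophage sum of 2.61 and 3.20 also counts Csf1r, which had 0.527 in replicate 2 and no peak in replicate 1. Neutrophil markers were higher at 1 of 2 genes, with sums of 2.49 and 2.62, and stroma markers at 1 of 2, with sums of 3.56 and 2.61. The stroma sum of replicate 1 also counts Pdgfrb, at 0.505, which had no peak in replicate 2. The natural killer list had 1 such gene, at 0.05, with sums of 0.457 and 0.421. The part of these cell types in the difference was not tested. Distal regions near the receptor genes leaned the same way: 45 of 58 were relatively higher in replicate 2, against 56.4% of all distal regions, with a median of 0.26 against 0.06.

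**Figure D3:**
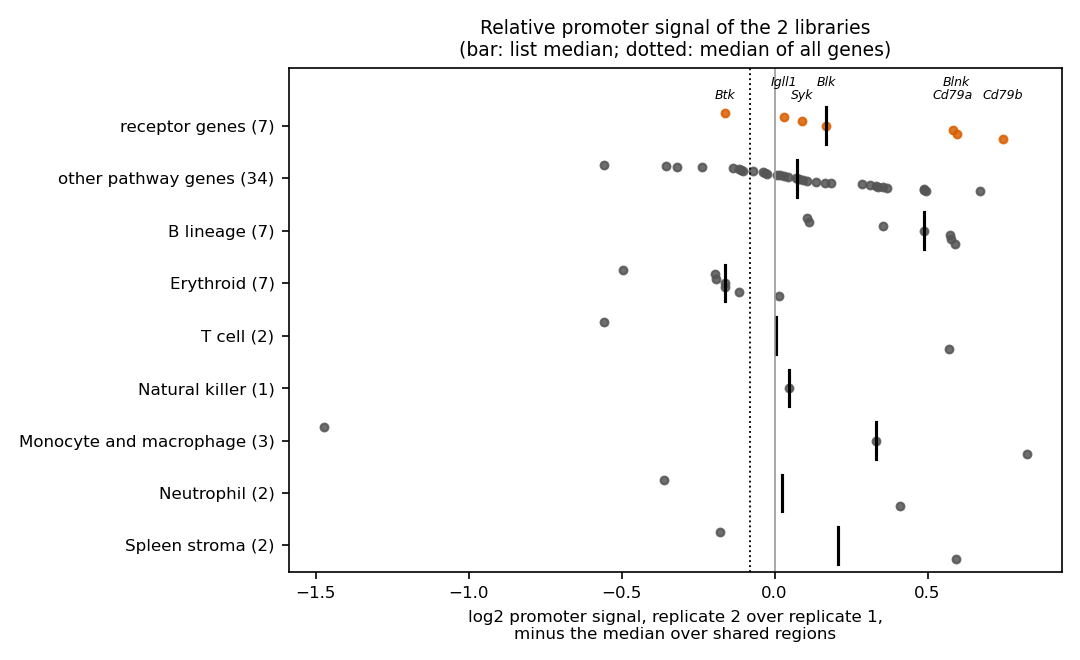
Centred log2 ratio of promoter signal, replicate 2 over replicate 1, for genes with a promoter peak in each library: 1 point per gene, bar at the median of the list, number of genes in parentheses. The receptor genes run from −0.16 (Btk) to 0.75 (Cd79b), and the B lineage markers lie right of 0 and the erythroid markers, apart from 1, left of it.

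The rest of the pathway was open nearly throughout. Of 35 other genes of the receptor pathway, 34 had an open promoter, against 59.7% of all genes, and 32 had one on the stricter lists, against 54.6%. The 2 that dropped out there were the inhibitory receptor genes Cd72 and Fcgr2b, named after their values were seen. The 19 CpG-poor promoters among them included 18 open ones, against 23.5% of all CpG-poor promoters. Ptprc, the gene of the phosphatase CD45 that activates Src family kinases, was the exception, with a peak of 0.396 in replicate 2 and none in replicate 1. The median of the mean signals was 3.83, above the 1.69 of the receptor genes. The pathway list holds many genes that other cell types use too.

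The 5 strongest promoters belonged to widely used signalling genes: the adaptor gene Grb2 (21.6 ± 2.96, SD, n = 2), Bcl10 of the NF-kappaB branch (20.5 ± 2.02), the phosphoinositide 3-kinase subunit gene Pik3r1 (16.8 ± 3.95), and the ubiquitin ligase genes Cbl (14.8 ± 2.34) and Cblb (12.6 ± 0.917). Cr2, a complement receptor gene chosen after its values were seen, had 2.14 and 3.04, on a scale closer to that of the receptor chains. Relative to all shared regions, 22 of the 34 open pathway genes were higher in replicate 2, against 36.9% of all genes, and their median centred log2 ratio was 0.07, against −0.079.

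**Figure D4:**
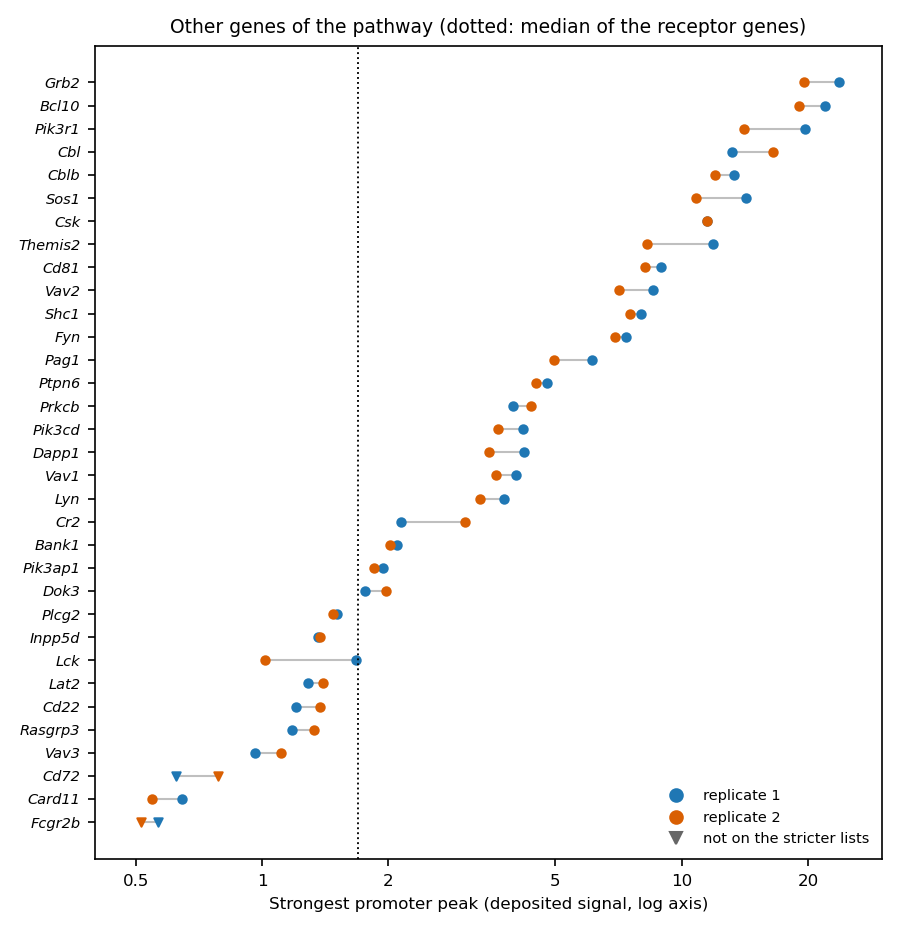
Promoter signal of 33 of the 34 other pathway genes with a peak in each library (log axis), 1 point per library, ordered by mean. The genes span Fcgr2b (0.540) to Grb2 (21.6), and the dotted line at 1.69 is the median of the 7 open receptor genes.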

How the data were processed

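DNase-seq peaks, footprints and FDR positions of 2 spleen libraries were used, on mm10 per the labels. The authors deposited a longer and a stricter peak list per library with a signal for each peak, on a scale not given in the sources used here. Footprints and cut positions carry the FDR (a q-value) that the authors deposited, 0.01 in every footprint line and below 0.05 in the position lists. The sources used here name no aligner or caller and do not say how reads with CAST/EiJ alleles were placed. The depth of each library is unknown, so no counting interval could be given.

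Peaks of both libraries that overlapped by 1 bp or more were merged into shared regions. Genes were the 21827 protein-coding symbols of the GENCODE vM21 basic set, with 41433 start sites. Promoter signal is the strongest peak within 1 kb. Centring subtracted the median log2 ratio over the 60596 shared regions. Values were computed under Python 3.11.15 with pandas 2.3.3, numpy 2.4.6, samtools 1.23.1 and pysam 0.24.0, with code tested on simulated data. Promoter sequences came from RefSeq (GRCm38.p6), where 7 of 9 genes had an entry. Faim3, a B lineage marker, was not found under that symbol in the annotation.

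The rule for the 9 genes uses their names alone, but they, the lists and the motifs were chosen with earlier results of these data known. Named are all 9 receptor genes, the 5 strongest pathway promoters, pathway genes open in 1 library or none, and the strongest distal region of each window by the lower of the 2 libraries. Other genes and regions were named after their values were seen. Alternatives were the stricter lists, other windows and flanks, a reciprocal overlap of 50%, a signal minimum, another scale and each library alone. The comprehensive annotation and other centrings were added after seeing the data. A pathway gene is counted in its lists and is not reported here by name.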

Additional observations from a re-analysis of the deposited data

How the results depend on the processing

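When peaks below the median signal of their library were dropped, 4 receptor genes kept an open promoter (Cd79a, Cd79b, Blnk and Syk), because Blk, Btk and Igll1 fell out, against 52.2% of all genes. Under the other settings the count ran from 5 (stricter lists) to 9 (2500 bp, where the Top3b promoter counts for Vpreb1 and an intergenic region 1.591 kb from its start site for Vpreb3), and it was 7 with either library alone and with the comprehensive annotation. Pathway genes with an open promoter numbered 32 to 35. The 98 regions in the windows became 76 with flanks of 25 kb, 134 with 100 kb, 66 on the stricter lists and 117 to 122 with a single library. Genes with footprints in both libraries numbered 5 to 7. Of 21 promoter signals recomputed with another scale or window, 18 stayed within 1 SD of the mean. The other 3 came with the 2500 bp window: Igll1 at 0.483, Btk at 6.83, which is the promoter of Rpl36a, and Blk at 1.34. Receptor genes relatively higher in replicate 2 numbered 6 of 7 when centred on all promoters, against 50% of all genes, or on CpG-poor ones, against 37.8% of all genes. With the 2500 bp window they numbered 9 of 9, against 37.6%. There the values of Btk and Vpreb1 are those of the Rpl36a and Top3b promoters, and that of Vpreb3 is an intergenic region. The rise from 6 of 7 therefore does not come from the promoters of these genes. No paired analysis was possible because the samples form 1 group. Depth is unknown, so no limit of detection could be set for the faint or missing promoters, and 2 libraries give no more than a range.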
